A study of Mus musculus with 112 samples.

Results

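Esrrb, Tfcp2l1, Zfp42, Nr0b1, Nr5a2, Tbx3 and Prdm14, 7 transcription factors of naive pluripotency, were followed through mouse epiblast stem cells, embryonic stem cells, induced pluripotent stem cells, fibroblasts and dissected epiblasts. A probe was counted as a member's when the array's gene symbol, an older synonym of it or a numeric gene identifier in its name stood for 1 of the 7 genes. The rule is set on names, but its match by identifier was added after the data were seen. It found 12 of 45281 probes, standing for 7 of 28698 genes. Tfcp2l1 is listed on the array as Tcfcp2l1. The Prdm14 probe used here is listed under a placeholder name that carries the gene's numeric identifier, and it stood for the gene because its mean over all arrays was higher (4.65 against 4.55 for the probe listed as Prdm14, which was detected on none of the arrays). Without the match by identifier Prdm14 was not tested, and the other 5 members were lower in EpiSCs than in ESCs and iPSCs.

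Naive pluripotency is the state of the preimplantation epiblast and of mouse embryonic stem cells. There LIF signalling through Stat3, and relief of target genes from the repressor Tcf7l1, feed a circuit of transcription factors that support each other and the core factors Pou5f1, Sox2 and Nanog. After implantation the epiblast enters a primed state that depends on FGF and activin signalling, and epiblast stem cells (EpiSCs) are lines grown from that tissue. The factors described here are textbook markers of the naive side of this boundary.

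The bead arrays held 6 kinds of sample. The 18 EpiSC lines were of strain R1-129 at passages 10 to 19. They came from embryos at the cavity stage (CAV1 to CAV4, embryonic days 5.5 to 6.0), prestreak stage (PS3 to PS5, days 6.0 to 6.5), late midstreak stage (LMS1 to LMS6, E6.75 to E7.5), early bud stage (EB1a and EB1b, E7.5 to E8.0) and late bud stage (LB1 to LB3, E7.75 to E8.25). For CAV2, CAV3, LMS2 and LB1 a subline thawed at another time was also measured, marked with an asterisk, and a line with its subline counted as 1 line. EB1a and EB1b are sister lines and were counted as 2 lines. With 3 cultures each, and 2 for PS4, the lines and sublines gave 65 arrays. EpiSC9 is an imported EpiSC line of strain 129SvJ at passage 24 (3 cultures), and 1 further array held EpiSC9 RNA prepared in another laboratory. Embryonic stem cells (ESCs) were 1 R1-129 line at passage 22 (3 cultures). Induced pluripotent stem cells (iPSCs) were 3 lines made from tail tip fibroblasts of (C57BL6xC3H)F1 mice (3 cultures each), and mouse embryonic fibroblasts (MEFs) of strain ARC/s gave 2 arrays. Linearly amplified RNA was measured in 17 single epiblasts and in 12 EpiSC cultures, 3 each of CAV2, PS5, LMS3 and LB2. The epiblasts were of the stages above and of the late streak (E7.0 to E7.5) and no bud stages (E7.25 to E7.75). EpiSCs were lifted from a fibroblast layer with collagenase, so some fibroblast RNA could come with them, and ESC and EpiSC9 are 1 line each. In bulk samples, fewer cells expressing a gene and less RNA per cell cannot be told apart. Where cultures of a line served as replicates, p-values measure only the spread between cultures.

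The labels were checked against marker genes. Of 5 core pluripotency genes, 4 to 5 were detected on each EpiSC array and all 5 on each ESC and iPSC array. MEF arrays detected 0 to 1 of them. Of 12 fibroblast markers, MEFs detected 11, EpiSC and iPSC arrays 8 to 11 and ESC arrays 10 to 11. The summed normalized intensity of these markers set MEFs apart, at 62800 to 65500. It was 5950 to 35800 in EpiSCs, 8350 to 22500 in iPSCs and 9520 to 10900 in ESCs. Of the array's probes, 33.7% to 41.1% were detected on EpiSC arrays and 21.3% to 29% on epiblast arrays. Clustering on 13482 probes near background split the arrays into 7 sets, and the 3 ESC and 9 iPSC arrays formed a set with no other class. The cell type and the set of these arrays cannot be told apart. iPSC line 3 stood apart from the other iPSC lines: over 15000 genes its arrays correlated with the ESC arrays at r = 0.995 to 0.996, against 0.945 to 0.959 for iPSC1 and 0.947 to 0.959 for iPSC2. Whether samples were mixed up could not be settled from the labels, so iPSC3 may not be the iPSC line it is named as. The comparisons of the iPSC lines with EpiSCs and with ESCs are therefore given with and without iPSC3. Other results on iPSCs, the class means among them, include iPSC3 unless stated.

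Promoters of Zfp42, Tfcp2l1, Esrrb and Nr5a2 are shown because these were the tested members with an entry in the table of starts. Each was lower in the EpiSC lines than in ESCs and iPSCs. Nr5a2 was an exception in the imported line EpiSC9, where it was not lower than in iPSCs. Each sequence is the 250 bases before a transcription start in RefSeq on mouse build GRCm38.p6, read along the gene's strand, and capitals mark matches to 7 short motifs of factors in the circuit. The motifs, searched on both strands in 32851 promoter windows of the same length, were the Pou5f1 octamer ATTTGCAT, the Klf box CCACNCCC, the STAT site TTCNNNGAA, the Esrrb and Nr5a2 half-site AAGGTCA, the T-box half-site AGGTGT, the paired half-sites of Tfcp2l1 and the TCF core CTTTGAT. Zfp42 lies at chr8:43307010-43307259 on the minus strand, Tfcp2l1 at chr1:118627695-118627944 on the plus strand, Esrrb at chr12:86360867-86361116 on the plus strand, and a start of Nr5a2 at chr1:136953631-136953880 on the minus strand.
Zfp42: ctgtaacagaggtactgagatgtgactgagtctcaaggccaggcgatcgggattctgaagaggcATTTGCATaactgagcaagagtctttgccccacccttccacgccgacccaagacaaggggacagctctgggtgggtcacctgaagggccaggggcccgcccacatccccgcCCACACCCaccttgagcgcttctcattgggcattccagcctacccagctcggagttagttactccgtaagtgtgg
Tfcp2l1: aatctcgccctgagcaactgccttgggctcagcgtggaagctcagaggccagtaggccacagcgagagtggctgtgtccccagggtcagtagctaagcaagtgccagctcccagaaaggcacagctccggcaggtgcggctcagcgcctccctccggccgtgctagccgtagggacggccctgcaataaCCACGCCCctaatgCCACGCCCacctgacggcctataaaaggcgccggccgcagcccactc
Esrrb: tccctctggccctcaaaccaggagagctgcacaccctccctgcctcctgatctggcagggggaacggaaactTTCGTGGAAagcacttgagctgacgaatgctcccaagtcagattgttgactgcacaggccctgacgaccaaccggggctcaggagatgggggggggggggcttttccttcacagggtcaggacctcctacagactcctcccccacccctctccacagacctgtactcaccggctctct
Nr5a2: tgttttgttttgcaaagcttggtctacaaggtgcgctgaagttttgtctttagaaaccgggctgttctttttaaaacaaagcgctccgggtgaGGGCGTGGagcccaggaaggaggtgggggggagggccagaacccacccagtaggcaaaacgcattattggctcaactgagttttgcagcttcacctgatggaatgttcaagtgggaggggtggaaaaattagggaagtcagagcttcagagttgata

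The Zfp42 window held the octamer beginning 186 bases before the start and a Klf box beginning 75 bases before it. The Tfcp2l1 window held Klf boxes beginning at 61 and at 47 bases, and the Esrrb window a STAT site beginning at 178 bases. The Nr5a2 window held a Klf box on the other strand, ending 150 bases before the start. Among all windows, 1.6% held the octamer, 15.9% the Klf box, 7.02% the STAT site, 4.08% the Esrrb and Nr5a2 half-site, 11.8% the T-box half-site, 2.78% the paired Tfcp2l1 sites and 3.21% the TCF core. No match overlapped another in the printed windows. Another start of Esrrb (chr12:86421394-86421643), another start of Nr5a2 (chr1:136960449-136960698) and Nr0b1 (chrX:86191525-86191774) held none of the 7 motifs. The table of starts matched 5 of the 7 members, and Tbx3 and Prdm14 are the others. A match describes letters in a window and is not a binding site.

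Values below are log2 intensities after background correction and quantile normalization, and a probe was called detected on an array at a detection p below 0.01. Detection differed widely among the members. Tfcp2l1 was detected on the most arrays, Tbx3 on 49, Nr5a2 on 44, Esrrb on 42, Zfp42 on 17 and Prdm14 on 12. Nr0b1, which encodes the orphan receptor Dax1, was detected on none of the arrays, with a lowest detection p of 0.0919 and values of 4.28 to 4.80. It was therefore not tested, and its probe carried no signal in any class, the ESC arrays included. The other 6 members passed the filter for the tests on unamplified RNA, which asked for detection on 3 arrays. A member reaches that filter through the classes where it is bright.

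Esrrb, Tfcp2l1, Zfp42, Nr5a2, Tbx3 and Prdm14 were all lower in EpiSCs than in ESCs, by at least 164-fold for Esrrb down to at least 1.94-fold for Prdm14. The comparison set 18 EpiSC lines against the ESC line in limma fits over 15000 genes, with a Benjamini-Hochberg adjusted p below 0.05 as the threshold. Lower in EpiSCs were 6 of the 6 members tested, where 13.2% of all genes tested were lower, and the median member difference was −4.22 log2 units against 0.02 over all genes. The members were chosen as naive markers, and Prdm14 passed the filter through ESC and iPSC arrays alone. The count, and those involving iPSCs below, therefore describe the members and are not a test of the set. "At least" marks a fold taken against the detection limit, because most arrays of the dimmer class did not detect the gene. How precisely a class mean is known is limited by its number of lines, not of arrays, and the ESC mean rests on the ESC line alone.

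Esrrb encodes an orphan nuclear receptor that sustains self-renewal in place of LIF when it is supplied in excess. Its ESC arrays read 12.69, 12.75 and 12.69, and the 65 EpiSC arrays ranged from 4.44 through a median of 5.01 to 6.83, with 15 detected. No EpiSC array came near the ESC arrays: the gap between the nearest of them was 5.86 log2 units. The difference was −7.63 ± 0.36 (SE, 18 lines against 1, limma adjusted p = 9.81e-14). A further Esrrb probe was detected on 2 arrays and gives no separate account.

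Tfcp2l1 encodes a grainyhead-like factor that lies downstream of LIF and Stat3. The ESC arrays read 11.54, 11.59 and 11.41. EpiSC arrays ran from 5.08 through a median of 6.29 to 8.10, and 61 of 65 were detected. Tfcp2l1 was thus the member still measurable in nearly every EpiSC array, yet the classes did not overlap. It was 36.4-fold lower in EpiSCs, at −5.18 ± 0.50 log2 units (SE, 18 lines against 1, limma adjusted p = 4.95e-08).

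Zfp42 encodes Rex1, a zinc finger protein used as a reporter of the naive state. ESC arrays read 10.01, 9.94 and 9.79, against 4.40, 4.73 and 5.42 as the lowest, median and highest EpiSC arrays. Detection in 2 of 65 EpiSC arrays places the gene at background in nearly every EpiSC culture. Zfp42 was at least 25.5-fold lower (−5.16 ± 0.57, SE, 18 lines against 1, limma adjusted p = 3.88e-07).

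Nr5a2, the liver receptor homologue Lrh1, can drive Pou5f1 transcription. Its ESC arrays read 8.23, 8.07 and 7.83. The 65 R1-129 EpiSC arrays ran from 4.33 through 4.65 to 5.92, with 9 detected. All EpiSC arrays lay below all ESC arrays, and the fold was at least 6.81 (−3.28 ± 0.36, SE, 18 lines against 1, limma adjusted p = 3.41e-07). Another Nr5a2 probe differed by −1.47 ± 0.25 (adjusted p = 0.000144 in a limma fit over single probes).

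Tbx3, a T-box repressor linked to LIF signalling through PI3 kinase, averaged 8.27 over the ESC arrays, all of them between 8.2 and 8.3. EpiSC arrays ran from 4.40 through 5.10 to 6.23, and 31 of 65 were detected. The classes did not overlap, and the fold was at least 7.10 (−3.08 ± 0.54, SE, 18 lines against 1, limma adjusted p = 0.000182). A dimmer Tbx3 probe, detected on 11 arrays, did not pass (−0.59 ± 0.23, adjusted p = 0.0682 in the limma fit over single probes).

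Prdm14, a PR-domain protein that with Cbfa2t2 restrains FGF signalling and DNA methylation, was the dimmest member tested. ESC arrays read 6.13, 6.37 and 6.07, and EpiSC arrays 4.23 to 4.93 with a median of 4.35. All 12 ESC and iPSC arrays detected the probe and no other array did. The fold was at least 1.94 (−1.81 ± 0.30, SE, 18 lines against 1, limma adjusted p = 0.000108). The small bound follows the probe's low signal in the bright class.

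**Figure D1:**
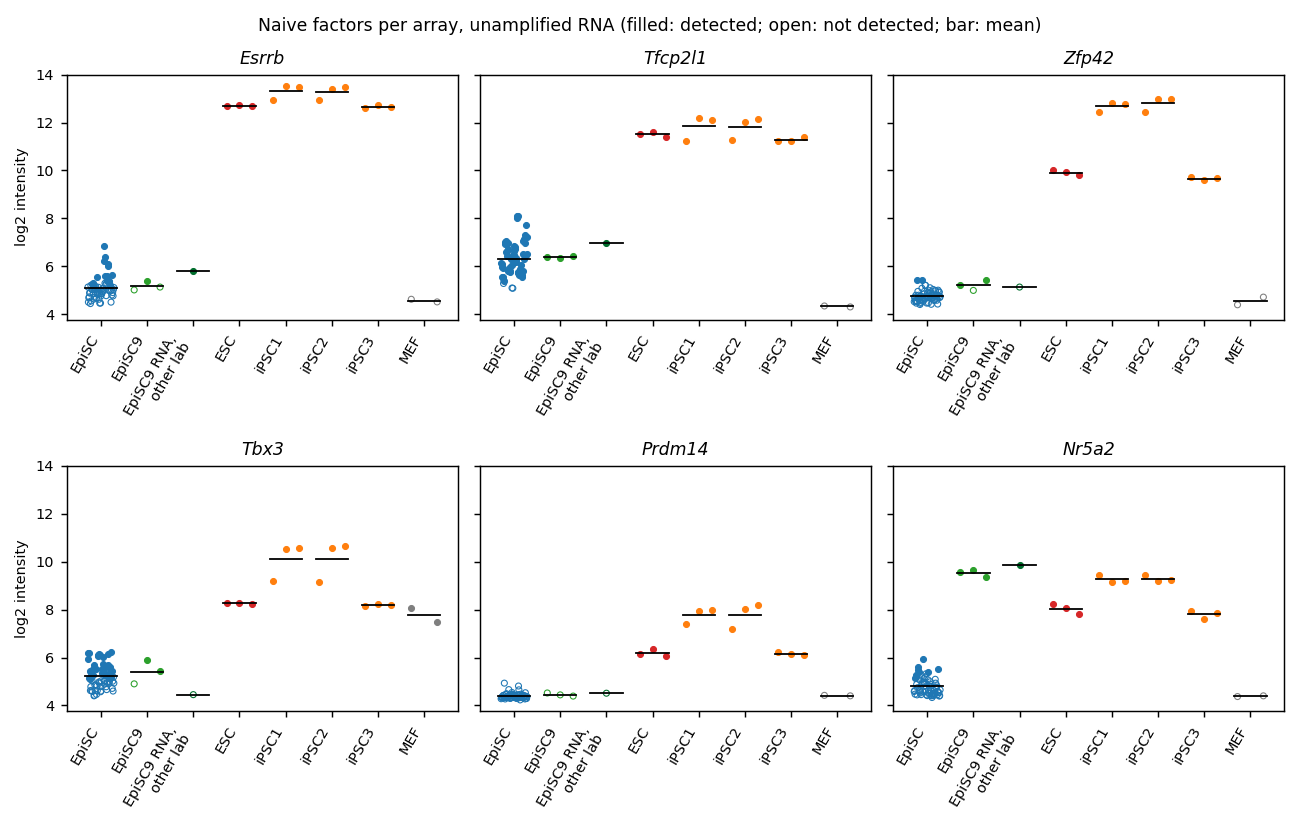
Normalized log2 intensity of the 6 genes tested on each unamplified array, by class and iPSC line, with filled points for arrays that detected the probe, open points for those that did not and a bar at the mean. ESC and iPSC arrays lie above every R1-129 EpiSC array for all 6 genes, EpiSC9 joins them for Nr5a2 at 9.36 to 9.64, and MEFs come close to them for Tbx3.

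The iPSC lines gave the same set of differences from EpiSCs. Of the 6 members tested, 6 were lower in 18 EpiSC lines than in 3 iPSC lines, where 20.4% of genes were lower. Esrrb was lower by at least 7.74 log2 units (−8.01 ± 0.22, SE, limma adjusted p = 6.93e-19), Zfp42 at least 89.1-fold (−6.96 ± 0.34, adjusted p = 7.45e-14) and Tfcp2l1 39.8-fold (−5.32 ± 0.30, adjusted p = 1.48e-12). Tbx3 was at least 16.4-fold lower (adjusted p = 2.83e-10), Nr5a2 at least 11.4-fold (adjusted p = 4.33e-13) and Prdm14 at least 4.01-fold (adjusted p = 1.08e-11). Without iPSC3 the 6 differences became −8.23 for Esrrb, −5.5 for Tfcp2l1, −7.99 for Zfp42, −4.51 for Nr5a2, −4.93 for Tbx3 and −3.40 for Prdm14, and all 6 passed. Every iPSC array read between 12.61 and 13.54 for Esrrb.

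The iPSC lines were not alike among themselves. Zfp42 read 12.43, 12.82 and 12.78 in iPSC1 and 12.44, 13.00 and 12.99 in iPSC2. In iPSC3 it read 9.71, 9.59 and 9.68, beside 10.01, 9.94 and 9.79 in the ESCs. The iPSC3 arrays thus lay just below the ESC arrays and the other 6 well above.

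Prdm14 followed the same order, with 7.19 to 8.18 in iPSC1 and iPSC2 and 6.11 to 6.22 in iPSC3. Tbx3 read 9.17 to 10.65 in iPSC1 and iPSC2 and 8.19 on average in iPSC3. Nr5a2 read 9.16 to 9.46 in the first pair and 7.59 to 7.96 in iPSC3. In iPSC1 and iPSC2, culture 1 stood below cultures 2 and 3 for Tbx3, at 9.20 against 10.55 and 10.56 in iPSC1 and 9.17 against 10.58 and 10.65 in iPSC2. Esrrb and Tfcp2l1 showed the same dip of culture 1 in both lines.

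With the 3 iPSC lines as replicates, 0 of 15000 genes differed from the ESC line, 0% of those tested, so no member did (limma, smallest adjusted p = 0.162, with 1172 genes at an unadjusted p below 0.05). The member differences were 1.80 ± 0.64 for Zfp42 (SE, adjusted p = 0.422), 1.21 for Tbx3 (0.665), 1.05 for Prdm14 (0.396), 0.74 for Nr5a2 (0.718), 0.38 for Esrrb (0.968) and 0.13 for Tfcp2l1 (1). Without iPSC3, 1355 genes passed and 4 members were higher in the remaining iPSC lines. These were Zfp42 at 2.83 (adjusted p = 1.06e-10), Prdm14 at 1.59 (3.44e-11), Tbx3 at 1.85 (0.0201) and Nr5a2 at 1.24 (0.00761). Esrrb, at 0.59 (adjusted p = 0.496), and Tfcp2l1, at 0.31 (0.894), did not pass.

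Between cultures, iPSC1 and iPSC2 were each higher than the ESCs for 5 of 6 members, where 21.7% and 20.1% of 15008 genes were higher. Zfp42 was higher by 2.77 in iPSC1 (limma adjusted p = 5.8e-21) and by 2.90 in iPSC2 (adjusted p = 6.22e-22). Nr5a2 was higher by 1.23 and 1.24, Tbx3 by 1.84 and 1.86, and Prdm14 by 1.58 and 1.60. Esrrb was higher by 0.62 (adjusted p = 0.00916) and 0.57 (adjusted p = 0.0169), calls that did not hold under median scaling or without culture 2 or culture 3. iPSC3 differed from the ESCs for 0 of 6 members and for 0.0133% of genes. Other cell types moved beside these values: endoderm markers summed to 2780 to 4110 in iPSC1, 1790 to 3630 in iPSC2, 658 to 689 in iPSC3 and 634 to 690 in ESCs, in normalized intensity. Macrophage markers summed to 357 to 3290 in iPSC1, 406 to 4080 in iPSC2, 566 to 715 in iPSC3 and 552 to 730 in ESCs. Fibroblast markers summed to 10600 to 22500 in iPSC1, 13100 to 21200 in iPSC2, 8350 to 10400 in iPSC3 and 9520 to 10900 in ESCs. Their part in the member differences was not tested.

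Most members were at background in MEFs. Esrrb read 4.62 and 4.51, Zfp42 4.39 and 4.71, Nr5a2 4.37 and 4.40 and Prdm14 4.42 and 4.40, with none detected. Esrrb, Zfp42, Nr5a2 and Prdm14 did not differ past the threshold between EpiSCs and MEFs, at 0.51 (limma adjusted p = 0.255), 0.20 (0.797), 0.38 (0.409) and −0.03 (0.937).

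Tfcp2l1 was the 1 member higher in EpiSCs than in MEFs, where 22.4% of genes were higher. MEF arrays read 4.34 and 4.30 and none was detected. The lowest EpiSC array lay 0.74 above them, so the classes did not overlap, and the fold was at least 1.65 (2.01 ± 0.50, SE, 18 lines against 1, limma adjusted p = 0.00247). Within the array set that held both MEF arrays and 15 EpiSC arrays, the difference was 1.30 (adjusted p = 0.00682).

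Tbx3 went the other way, being lower in EpiSCs than in MEFs, where 20.9% of genes were lower. MEF arrays read 8.07 and 7.5, both detected, and the nearest EpiSC array lay 1.28 below. The fold was at least 5.08 (−2.60 ± 0.54, SE, 18 lines against 1, limma adjusted p = 0.000428), and within the shared array set the difference was −2.75 (adjusted p = 0.000752). Tbx3 is a gene of embryonic limb and other mesenchyme as well as of naive cells. Of the members, it was the one detected in fibroblasts.

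All 6 members tested were higher in iPSCs than in MEFs, where 24.5% of genes were higher. Esrrb was higher by at least 7.49 log2 units, Zfp42 by at least 69.1-fold, Tfcp2l1 by at least 65.8-fold, Nr5a2 by at least 9.08-fold and Prdm14 by at least 3.11-fold, at limma adjusted p values of 1.2e-13 to 5.84e-07. Tbx3 was 3.23-fold higher (1.69 ± 0.60, adjusted p = 0.025), with 0.08 between the nearest arrays. That call was lost without iPSC1 (adjusted p = 0.0764), without iPSC2 (0.0784), without MEF culture 2 (0.059) and with only the iPSC and MEF lines in the fit (0.213), and it was 2.33 (0.000717) without iPSC3. The Prdm14 call too was lost with only those lines in the fit (adjusted p = 0.0561).

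The order of the classes differed from gene to gene. For Esrrb the class means ran from iPSC at 13.09 ± 0.37 (SD, 3 lines) and ESC at 12.71 to EpiSC9 at 5.17, EpiSC at 5.08 ± 0.35 (SD, 18 lines) and MEF at 4.56, and only the step between ESC and EpiSC9 was wide. Tfcp2l1 ran in the same order, from 11.64 ± 0.32 and 11.51 to 6.39, 6.33 ± 0.53 and 4.32. Zfp42 ran 11.72 ± 1.78, 9.91, 5.21, 4.75 ± 0.12 and 4.55, and Prdm14 7.24 ± 0.94, 6.19, 4.45, 4.38 ± 0.06 and 4.41 with MEF above EpiSC. For these genes the neighbours iPSC and ESC, EpiSC9 and EpiSC, and, except for Tfcp2l1, EpiSC and MEF did not differ past the threshold. For Tbx3 the order was iPSC at 9.48 ± 1.11, ESC at 8.27, MEF at 7.79, EpiSC9 at 5.40 and EpiSC at 5.19 ± 0.45. For Nr5a2 it was EpiSC9 at 9.53, iPSC at 8.79 ± 0.85, ESC at 8.04, EpiSC at 4.77 ± 0.25 and MEF at 4.39, and EpiSC9 and iPSC did not differ past the threshold. ESC was not tested against EpiSC9 or MEF.

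**Figure D2:**
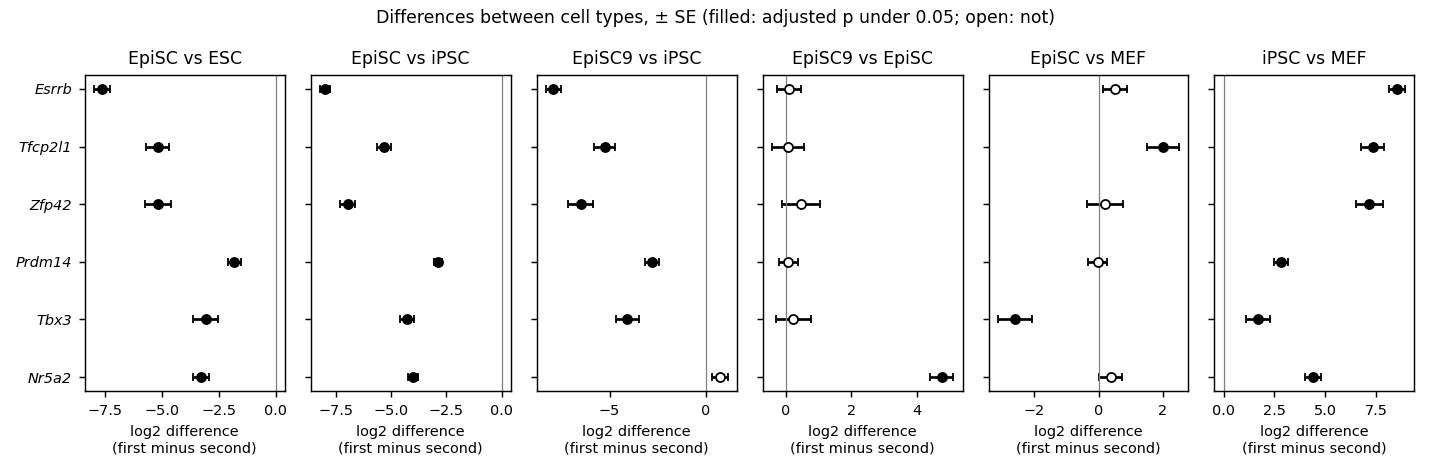
Log2 difference of each of the 6 genes in 6 comparisons of unamplified lines, first class minus second, with bars for the standard error and filled points where the limma adjusted p was below 0.05. EpiSCs lie left of 0 for all 6 genes against ESCs and iPSCs, and in EpiSC9 against EpiSCs, where the 6 points lie at 0.06 to 4.76, the point of Nr5a2 alone is filled.

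Of the 6 members tested, Nr5a2 alone differed past the threshold between EpiSC9 and the R1-129 EpiSC lines. The EpiSC9 arrays read 9.58, 9.64 and 9.36 and the highest of 65 R1-129 arrays 5.92, leaving a gap of 3.44. Nr5a2 was at least 19.0-fold higher in EpiSC9 (4.76 ± 0.36, SE, 1 line against 18, limma adjusted p = 5.85e-09), the 1 call among 6 members where 1.33% of genes were higher. The EpiSC9 RNA from another laboratory read 9.86 on the same probe and 7.13 on a further Nr5a2 probe. That further probe read 6.86 to 7.22 in EpiSC9 and at most 4.95 in the R1-129 arrays (2.47 ± 0.25, adjusted p = 8.99e-07 in the limma fit over single probes). Within the array set that held EpiSC9 and 15 R1-129 arrays the difference was 4.67 (adjusted p = 0.0022). EpiSC9 differed from the others in strain, passage and laboratory of origin at once, and these cannot be told apart.

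The remaining members did not pass. Esrrb read 5.01, 5.37 and 5.13 (difference 0.09, limma adjusted p = 0.947), Tfcp2l1 6.39, 6.35 and 6.44 (0.06, 0.979) and Zfp42 5.20, 4.99 and 5.44 (0.46, 0.800). Tbx3 read 4.90, 5.89 and 5.42 (0.22, 0.917) and Prdm14 4.52, 4.44 and 4.39 (0.07, 0.954). All lay inside the range of the R1-129 arrays except the Zfp42 value of 5.44, just above the highest of them at 5.42. Against iPSCs, EpiSC9 was lower for 5 of 6 members, where 8.28% of genes were lower: Esrrb by at least 7.80 log2 units, Zfp42 91-fold, Tfcp2l1 38.2-fold, Tbx3 16.8-fold and Prdm14 at least 3.89-fold (limma adjusted p values of 6.37e-13 to 4.27e-05). Nr5a2 was not among them (0.74 ± 0.40, limma adjusted p = 0.22). It did not pass in any of 20 alternatives, the one without iPSC3 included, and its difference ran from 0.25 to 0.99.

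The related pathways held no call beside Nr5a2 in EpiSC9. None of 11 partners in the naive circuit, 5 core pluripotency genes, 8 LIF and Stat3 genes, 6 Wnt and TCF genes, 8 FGF genes, 7 DNA methylation genes, 7 primed epiblast genes and 6 paralogs of the members passed the test. Genes of other lineages did: 4 of 5 endothelial markers tested, 3 of 6 mesoderm markers, 2 of 11 endoderm markers and 1 of 7 extraembryonic ectoderm markers were higher in EpiSC9. Cldn5, a tight junction gene of endothelium, was at least 11.9-fold higher (3.90 ± 0.54, SE, limma adjusted p = 9.45e-05). Meox1, a homeobox gene of somites, was at least 15.0-fold higher (4.16 log2 units). The endothelial markers summed to 957 to 1110 in EpiSC9, 386 in the EpiSC9 RNA from another laboratory and 144 to 304 in the R1-129 arrays. Mesoderm markers summed to 1400 to 1710 in EpiSC9, 2520 in the other laboratory's RNA and 377 to 2930 in the R1-129 arrays. Germ cell markers summed to 1640 to 2170 in EpiSC9, 3010 in the other laboratory's RNA and 482 to 1730 in the R1-129 arrays. None of the germ cell markers tested passed, and Dppa3, Prdm1, Nanos3, Dazl and Ddx4 were detected on 0 of 3 EpiSC9 arrays. The part of cells of other lineages in the Nr5a2 values was not tested.

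None of the 4 members tested differed past the threshold with the stage of the embryo a line came from. Of the 4 members detected often enough, 0 differed among the 5 stages, where 0.014% of 14311 genes did (limma moderated F, Benjamini-Hochberg adjusted). Esrrb had an adjusted p of 0.57 in the limma fit, with stage means of 4.86 for cavity, 5.0 for prestreak, 5.39 for late midstreak, 5.08 for early bud and 4.81 for late bud lines. Tfcp2l1 averaged 6.28, 6.89, 6.21, 5.83 and 6.4 in the same order (adjusted p = 0.771). Nr5a2 (0.777) and Tbx3 (0.917) did not pass either. Of 65 EpiSC arrays, 9 detected Nr5a2, 15 Esrrb and 31 Tbx3, so most of their values lay near background. For these genes the test could hardly show a stage difference, and it cannot tell whether stage matters. Lines from pregastrula against gastrula embryos differed by −0.26 ± 0.15 for Esrrb, 0.35 ± 0.23 for Tfcp2l1, −0.04 ± 0.12 for Nr5a2 and −0.08 ± 0.20 for Tbx3 (SE, 7 lines against 11). In that comparison 0 of 14311 genes passed (adjusted p = 0.997 for all 4 members, 595 genes at an unadjusted p below 0.05). The early bud lines, EB1a and EB1b, are sister lines, so the early bud mean rests on that related pair. Joining them as 1 line changed no member's call.

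Lines differed from each other in some members. Among the 22 lines and sublines, with cultures as replicates, 4 of 6 members differed (limma F adjusted p of 5.56e-18 for Tfcp2l1, 2.97e-11 for Esrrb, 1.19e-06 for Tbx3 and 5.12e-06 for Nr5a2), while Zfp42 (0.274) and Prdm14 (0.675) did not. That test called 89.8% of all genes, so the share of members called, 4 of 6, lay below that of all genes. The Tbx3 call was lost without background correction (adjusted p = 0.117) and with the authors' processed values (0.0952).

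Tfcp2l1 spanned the widest range of line means, from 5.52 in CAV2 to 7.08 in PS4. LMS6 (6.89), LMS2 (6.88), CAV3 (6.86) and PS3 (6.86) followed at the top, and LMS5 (5.66), LMS3 (5.75), LMS4 (5.82) and EB1b (5.83) stood at the bottom. Cavity and late midstreak lines stood at both ends of the order. The Tfcp2l1 values of the 15 arrays of 1 array set ran from 5.08 to 6.05, against 5.55 to 8.10 over 19 arrays of another, so the level moved with array set, whose part was not tested.

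Esrrb stood highest in LMS2 (5.93) and LMS4 (5.90), against 5.28 in PS4, the next line, and 4.74 in LB2, the lowest. LMS4 arrays read 5.58, 6.09 and 6.02, all detected. Esrrb was thus detected in every culture of 2 late midstreak lines, LMS4 and LMS2 without its subline, and in scattered cultures elsewhere. These levels remained 5.86 log2 units or more below the ESC arrays.

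Tbx3 line means ran from 4.56 in CAV4 to 6.10 in CAV1. Fibroblast markers summed to 18300 in CAV1, 22000 in LB1, 22400 in LMS6, 20300 in LMS1 and 21000 in LMS4, the lines highest in Tbx3, and to 8600 in CAV4, 7650 in LMS3, 9310 in LB2 and 12000 in EB1b, the lines lowest in it. The order was not the same throughout: CAV2 had a sum like that of CAV1 (18200) with Tbx3 at 5.22. The sublines with the highest sums, LMS2* (29100) and LB1* (27000), had Tbx3 at 5.30 and 5.34. MEFs, which express Tbx3, summed to 62800 to 65500. The part of fibroblast RNA in the Tbx3 values was not tested. Among the 18 lines, pairs of the 4 members compared had Pearson r from −0.13 to 0.07. This describes lines that share cultures' media and array sets. Of 65 EpiSC arrays, 61 detected Tfcp2l1, but only 15 detected Esrrb, 31 Tbx3 and 9 Nr5a2. Each pair thus held a gene that most arrays did not detect, so these r cannot tell whether the members varied together.

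**Figure D3:**
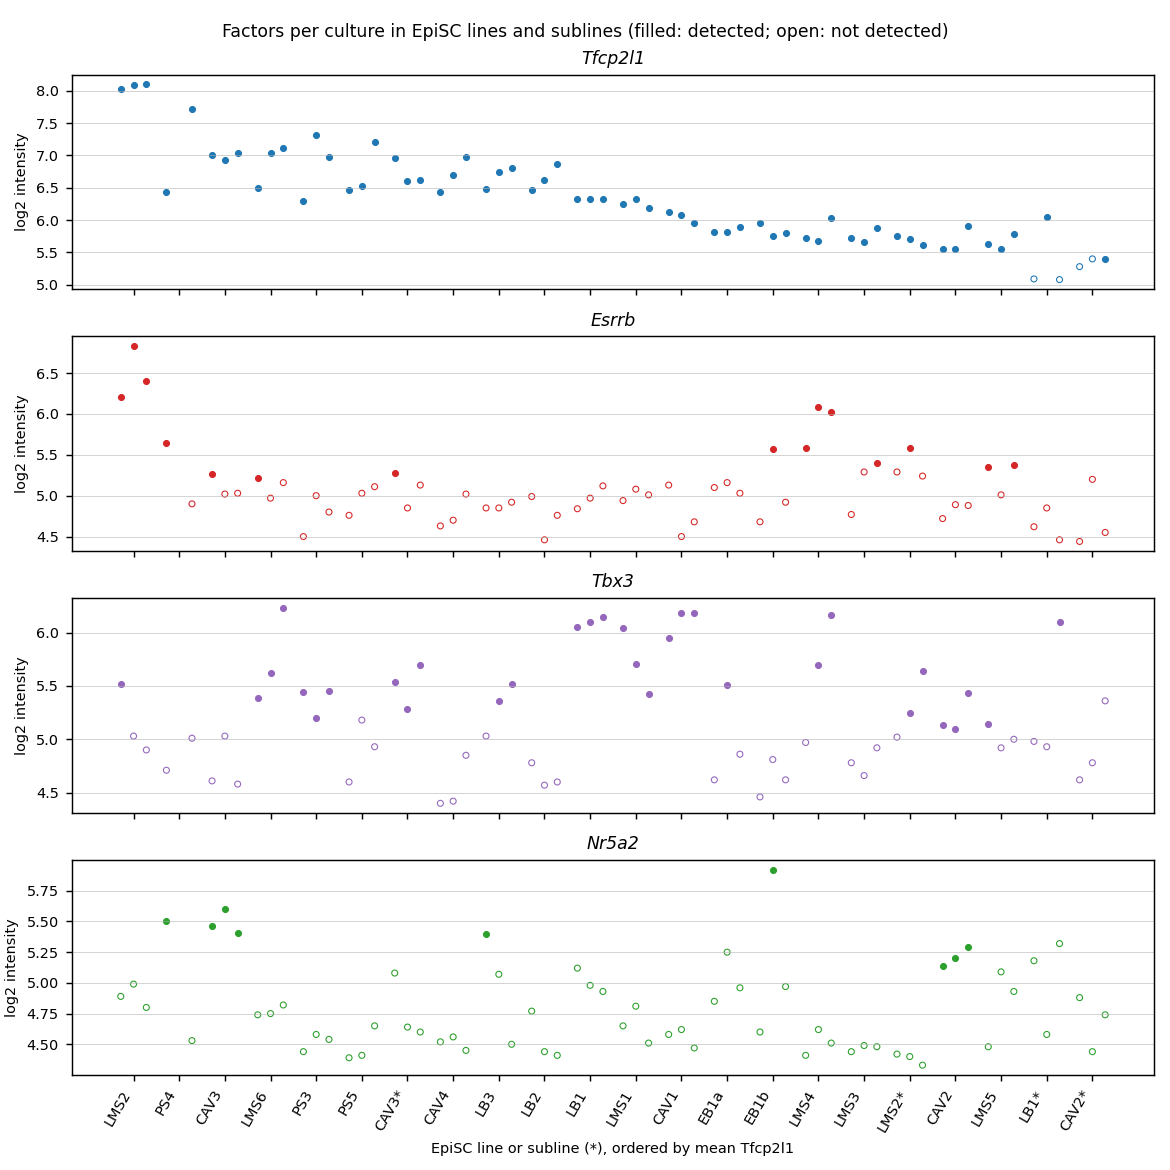
Normalized log2 intensity of Tfcp2l1, Esrrb, Tbx3 and Nr5a2 on each culture of the EpiSC lines and sublines, ordered by their mean Tfcp2l1, with filled points for detected probes. LMS2 reaches 8.10 for Tfcp2l1 and 6.83 for Esrrb while its subline LMS2* lies at 5.62 to 5.75 and 5.24 to 5.58.

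Sublines thawed at another time differed from their own line in the members too. LMS2 had the largest shift: Tfcp2l1 read 8.03, 8.09 and 8.10 in LMS2 and 5.75, 5.70 and 5.62 in LMS2*. The 3 LMS2 arrays lay above every other EpiSC array and the 3 LMS2* arrays in the lower part of the range. The difference was −2.39 ± 0.23 (SE, 3 cultures each, limma adjusted p = 5.17e-13). Esrrb read 6.21, 6.83 and 6.4 in LMS2 and 5.29, 5.58 and 5.24 in LMS2*, a drop of at least 2.11-fold (−1.11 ± 0.20, adjusted p = 9.28e-06). Nr5a2 passed the threshold as well (−0.51, adjusted p = 0.0363), but no array of either detected it, so both values lie at background, and the call was lost in 4 of 13 alternatives (adjusted p up to 0.181). With it, 3 of 6 members were called lower, where 18.7% of genes were lower.

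LMS2 and LMS2* lay in different array sets, as did the other lines and their sublines. Passage differed too, at 14 in LMS2 and 13 in LMS2*, 16 and 19 for CAV2, 14 and 11 for CAV3 and 15 and 16 for LB1. Set, passage and thaw therefore cannot be told apart. Fibroblast markers summed to 10600 to 19400 in LMS2 and 24700 to 35800 in LMS2*, and 8 of 11 tested were higher there. Mesoderm markers summed to 1290 to 1820 in LMS2 and 386 to 459 in LMS2*, where 1 of 6 tested was lower, T, a T-box gene of the primitive streak (−3.02 ± 0.55, SE, limma adjusted p = 1.16e-05). Also lower in LMS2* were 5 of 11 naive circuit partners and 5 of 11 endoderm markers, with Cer1, an inhibitor of Nodal, at least 5.97-fold down, and 3 of 6 Wnt and TCF genes, with Sp5 at −2.96. The part of these cells in the member differences was not tested. In LB1*, Tfcp2l1 was lower than in LB1 by at least 1.62-fold (−0.92, limma adjusted p = 0.00117) and Tbx3 by at least 1.43-fold (−0.76, adjusted p = 0.0402), where 16.6% of genes were lower. Culture 2 of LB1* read 6.05 for Tfcp2l1, close to the 6.32 to 6.33 of LB1, and the other cultures 5.09 and 5.08.

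In CAV3*, Nr5a2 was lower by at least 1.15-fold (5.46, 5.60 and 5.41 against 5.08, 4.64 and 4.60, −0.71, limma adjusted p = 0.00261), where 20.2% of genes were lower. Tbx3 was higher there by at least 1.27-fold (0.77, adjusted p = 0.0288), where 20.5% of genes were higher, and the fibroblast sum went from 5950 to 7460 in CAV3 to 14500 to 22800 in CAV3*. Tfcp2l1 did not move between CAV3, at 6.93 to 7.04, and CAV3*, at 6.61 to 6.96, past the threshold. CAV2* had Nr5a2 lower than CAV2 (−0.52, adjusted p = 0.0292), where 21.4% of genes were lower, and the 3 CAV2 arrays at 5.14 to 5.29 were detected while the CAV2* arrays were not. A test of whether the subline difference varied among the 4 lines called Tfcp2l1 (limma F adjusted p = 9.58e-08), Esrrb (0.00306) and Tbx3 (0.00974), where 49.3% of genes were called, and not Nr5a2 (0.116), Zfp42 (0.123) or Prdm14 (0.723). The Esrrb call did not hold without culture 3 (0.109), nor the Tbx3 call without culture 2 (0.124), without background correction (0.312) or with the authors' processed values (0.292).

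In dissected epiblasts, Esrrb and Nr5a2 were higher at the bud stages than before gastrulation, while Tfcp2l1 did not differ past the threshold. The epiblasts were taken from embryos of the cavity to the late bud stage, 1 embryo each, and their RNA was amplified, so they were compared only with amplified RNA. They were joined into 4 early (cavity and prestreak), 6 streak (late midstreak and late streak) and 7 bud epiblasts (no bud, early bud and late bud). In a limma fit over 12001 genes, 3 members were tested. Zfp42, Tbx3, Prdm14 and Nr0b1 were detected too seldom. The share of probes detected, a sign of RNA quality, was 25.4% to 28% in early, 24.7% to 29% in streak and 21.3% to 25.2% in bud epiblasts, so it was lower in every bud than in every early epiblast, and its part in the differences between stages was not tested.

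Esrrb read 5.38 and 5.54 in cavity, 5.55 and 4.82 in prestreak and 6.63, 6.35 and 5.36 in late midstreak epiblasts. It read 7.63, 7.85 and 7.67 at late streak, 8.28 at no bud, 7.53, 7.21 and 8.18 at early bud and 7.18, 7.64 and 7.79 at late bud. The values of 4 early epiblasts lay below all values from late streak on, and 2 of 3 late midstreak embryos lay between. Bud exceeded early epiblasts by at least 2.29-fold (2.37 ± 0.38, SE, 7 against 4, limma adjusted p = 7.41e-05), where 17.9% of genes were higher. Streak exceeded early epiblasts by at least 1.34-fold (1.59 ± 0.39, adjusted p = 0.0154), where 3.91% of genes were higher. The latter call did not hold without prestreak epiblast 2 (adjusted p = 0.0743). Bud and streak did not differ past the threshold (0.77, adjusted p = 0.0853).

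Nr5a2 rose later. It read 6.54 and 6.65 in cavity, 5.56 and 6.00 in prestreak, 6.07, 5.52 and 4.99 in late midstreak and 6.94, 7.60 and 6.38 in late streak epiblasts. At no bud it read 9.37, at early bud 8.46, 7.69 and 8.36 and at late bud 7.06, 8.37 and 7.96. All 7 bud epiblasts detected the probe and lay above the 4 early ones, of which 1 detected it. Bud exceeded early epiblasts by at least 3.11-fold (1.99 ± 0.48, SE, 7 against 4, limma adjusted p = 0.00304). Bud also exceeded streak epiblasts 3.81-fold (1.93 ± 0.43, 7 against 6, adjusted p = 0.00204), where 15.9% of genes were higher, although late streak embryo 2, at 7.60, overlapped the bud range. Streak and early epiblasts did not differ past the threshold (0.06, adjusted p = 0.973).

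Tfcp2l1 was detected in 16 of 17 epiblasts. It read 7.74, 7.11, 6.99 and 7.45 in the early, 6.55, 7.20, 6.77, 6.17, 7.35 and 7.60 in the streak and 8.17, 7.60, 6.78, 7.13, 7.53, 7.51 and 8.12 in the bud epiblasts. The 3 periods overlapped. Bud and early epiblasts differed by 0.23 (limma adjusted p = 0.595), and bud and streak epiblasts by 0.61 (adjusted p = 0.0843).

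Zfp42 was detected too seldom in epiblasts for a test. It read 5.75 and 6.06 in cavity and 6.44 and 5.86 in prestreak epiblasts, of which the 6.44 alone was detected, and 4.43 to 6.18 later, never detected. Tbx3 was detected in 2 of 17 epiblasts, a late midstreak embryo at 6.16 and a late streak embryo at 6.24. Prdm14 and Nr0b1 were detected in 0 of 17.

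**Figure D4:**
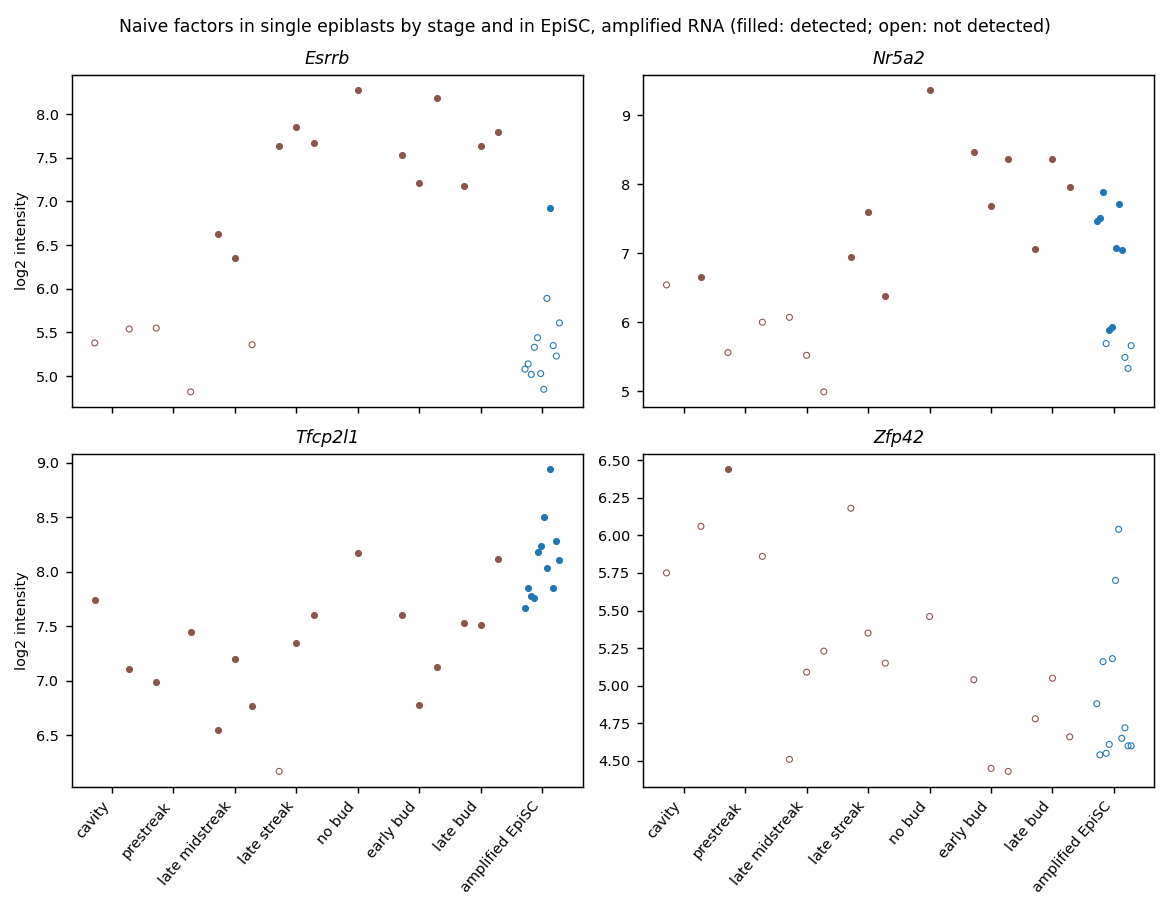
Normalized log2 intensity of Esrrb, Nr5a2, Tfcp2l1 and Zfp42 in 17 single epiblasts by stage and in 12 amplified EpiSC cultures, with filled points for detected probes. Esrrb climbs from 4.82 to 5.55 in early epiblasts to 7.18 to 8.28 at the bud stages, and the amplified EpiSC cultures lie at 4.85 to 6.93.

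Other genes of the circuit moved between the same epiblasts, where 17.9% of all genes rose and 16% fell. From early to bud epiblasts 4 of 5 core genes fell, Pou5f1 with −3.25 ± 0.52 log2 units (SE, 7 against 4, limma adjusted p = 6.22e-05) and Sox2 by at least 2.26-fold. Of 8 naive circuit partners tested, 4 rose: Gbx2 by 5.80, Klf5 by 2.25, Klf4 by at least 1.32-fold and Tdh by 0.97. Among LIF and Stat3 genes, 3 of 6 rose, led by Socs3, a feedback inhibitor of Stat3, at 2.73 ± 0.34. In the Wnt and TCF list 2 of 5 rose, Sp5 by at least 22.9-fold and Axin2 by 1.09. In the FGF list 1 of 5 rose, the receptor Fgfr2 by 3.10, and 4 fell, with Fgf5 at −2.39 and Etv5 down by at least 6.98-fold. Of 6 primed epiblast genes 4 fell, among them Nodal at −3.92.

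Markers of other cells of the embryo moved with these values. Extraembryonic ectoderm markers summed to 2110 to 2510 in early, 2960 to 5050 in streak and 4070 to 9810 in bud epiblasts, and 2 of 5 tested rose from early to bud, Cdx2 by at least 22.1-fold and Tfap2c by 4.0. Elf5, which defines that tissue, and Hand1 were detected too seldom to be tested. Mesoderm markers summed to at most 318 in early, 238 to 7160 in streak and 655 to 2460 in bud epiblasts, with 4 of 4 tested higher in bud epiblasts, T by at least 4.85-fold. Germ cell markers summed to 674 to 1020, 1520 to 2100 and 2530 to 5780, while Dppa3, Prdm1, Nanos3 and Dazl were detected too seldom to be tested. The part of these cells in the Esrrb and Nr5a2 values was not tested. The labels call 2 of the bud epiblasts, early bud 3 and late bud 3, cultured cells in 1 field and epiblasts in the others. Both bud differences passed without those 2 embryos.

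Amplified EpiSCs were set against the epiblasts as 4 line means. Their Esrrb values ran from 4.85 to 6.93 with 1 of 12 detected, and did not differ past the threshold from early epiblasts (0.09, limma adjusted p = 0.894). Esrrb was lower than in bud epiblasts by at least 3.05-fold (−2.28, adjusted p = 7.94e-05), where 20.9% of genes were lower. It was lower than in streak epiblasts by at least 1.78-fold (−1.5, adjusted p = 0.0055), where 13.1% of genes were lower. Tfcp2l1 ran from 7.68 to 8.94, all detected, and was higher than in streak epiblasts (1.16, adjusted p = 0.00621), where 18.7% of genes were higher. It did not differ past the threshold from early (0.78, adjusted p = 0.0755), against which 36.7% of genes were called, or bud epiblasts (0.55, adjusted p = 0.14).

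Nr5a2 divided the amplified EpiSC lines. CAV2 read 7.47, 7.51 and 7.89 and LMS3 7.07, 7.72 and 7.05, all detected. LB2 read 5.69, 5.88 and 5.93 and PS5 5.49, 5.33 and 5.66. The first pair reached the bud range and the second pair lay with early epiblasts. The 4 lines together were lower than bud epiblasts (−1.62, limma adjusted p = 0.00974), a call lost without PS5 (−1.27, adjusted p = 0.055).

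The same 4 lines were measured without amplification, which bears on how these levels can be read. Unamplified, Nr5a2 read 5.14 to 5.29 in CAV2, 4.44 to 4.49 in LMS3, 4.41 to 4.77 in LB2 and 4.39 to 4.65 in PS5, detected in CAV2 alone. LMS3, at background without amplification, was thus among the bright lines with it. The amplified LMS3 arrays also detected fewer probes than the others, 24.6% to 24.8% against 29.9% to 32.7% in CAV2, PS5 and LB2, and the part of this in the Nr5a2 values was not tested. Amplified exceeded unamplified RNA by 1.88 ± 0.34 for Nr5a2 (SE, 4 lines, limma adjusted p = 0.00329) and by 1.90 ± 0.34 for Tfcp2l1 (adjusted p = 0.0031), where 25.8% of genes were higher, and by −0.17 for Tbx3 (adjusted p = 0.443). The shift differed among the lines for Nr5a2 (F adjusted p = 2.12e-05) and Tfcp2l1 (0.000477), where 76.2% of genes were called, and not for Tbx3 (0.716).

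Partners of the members in the naive circuit were lower in EpiSCs at 7 of 11 genes, with a median difference from ESCs of −3.89. Dppa3, a maternal and germ cell factor, was at least 46.3-fold lower, the threonine dehydrogenase Tdh at least 45.9-fold, the kinase coactivator Tcl1 at least 31.4-fold and the adhesion molecule Pecam1 at least 9.55-fold. Fbxo15 was lower by −5.49 ± 0.52 (SE, 18 lines against 1), Klf2 by −4.07 ± 0.79 (limma adjusted p = 0.00058) and Klf5 by −3.09 ± 0.50 (9.12e-05). Nanog (−0.69, adjusted p = 0.252), Klf4 (−1.87, 0.0772), Gbx2 (0.99) and Sall4 (−0.38) did not pass. Among core genes 2 of 5 were lower, Utf1 by −4.10 and L1td1 by −3.09. Pou5f1 (−0.94, adjusted p = 0.303) and Sox2 (−0.80) did not pass.

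Among upstream pathways, each count below stands beside 13.2% of all genes lower and 13.1% higher in EpiSCs than in ESCs. Of 8 LIF and Stat3 genes, 2 were lower, the receptor Lifr by at least 1.49-fold and the kinase Pim3 by 1.71 log2 units (−1.71 ± 0.42), and 1 was higher, the kinase Jak1 (1.62 ± 0.35, limma adjusted p = 0.00145), while Stat3 did not pass (−0.28, 0.693). Of 6 Wnt and TCF genes 1 was higher, Axin2 (1.5, adjusted p = 0.049). In the FGF list 3 of 8 were higher, Fgf5 (2.78), Dusp6 (1.42) and Fgfr1 (0.76), and 2 were lower, the naive cell ligand Fgf4 by at least 3.43-fold and the inhibitor Spry4 (−1.57). Among 7 DNA methylation genes and the Prdm14 partner, 4 were lower: Dnmt3l, the cofactor of de novo methylation, by at least 354-fold (adjusted p = 1.1e-08), Tet1 (−3.45), Tet2 (−2.69) and Cbfa2t2 itself (−1.03, 0.00601). Of 7 primed epiblast genes 2 were higher, Fgf5 and Sox3, the latter by at least 1.08-fold.

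Paralogs of the members did not share the difference as a group. Of 6 tested, 1 was lower in EpiSCs, Prdm16 by at least 1.91-fold (−1.51 ± 0.20, SE, 18 lines against 1, limma adjusted p = 5.67e-06). Esrra, the broadly expressed relative of Esrrb, differed by 0.39 (adjusted p = 0.244) and Esrrg by 0.62 (0.401). Tfcp2 and Ubp1, relatives of Tfcp2l1, differed by 0.80 (0.0699) and −0.32 (0.213), and Yy2, a relative of Zfp42, by −0.01 (0.988). Tbx2, Nr5a1, Nr0b2, Yy1 and Prdm1 were detected too seldom to be tested.

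The genes whose levels were most like each member's over the 24 unamplified units, by Pearson r, mostly shared the split between ESCs and iPSCs and all else. For Esrrb they were AU018091 (r = 0.994), Tcl1 (0.994), Tex14 (0.993) and LOC386196 (0.993). Zfp42 and Prdm14 were each among the 4 nearest of the other (0.995), and Zfp42 was followed by Hormad2, Spata31d1a and Smc1b. For Prdm14 the nearest were Fmr1nb (0.998) and Nlrp14 (0.996), for Tfcp2l1 LOC100045877 (0.970) and Chrna9 (0.968) and for Tbx3 LOC100047200 (0.987) and 6030495B01RIK (0.963). Nr5a2, which is also high in EpiSC9, had Myh3 (0.969), Cpn1 (0.961), Cfap43 (0.945) and LOC226017 (0.917) nearest. Pairs of members correlated at 0.74 to 0.99 over these units, which share the class split.

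Within classes the neighbours were others. Over the 18 EpiSC lines Tfcp2l1 was most like Commd5 (r = 0.806), Nfyc (0.805) and Exoc8 (0.803). Over the 17 epiblasts, which share the course of stages and 1 array set, Esrrb was most like Cish (0.962), a feedback inhibitor of cytokine signalling, Ift140 (0.961), Onecut2 (0.955) and Efna5 (0.953). Nr5a2 was most like Rims3 (0.984) and Atxn7l2 (0.965), and Tfcp2l1 most like Trappc10 (0.853). Esrrb and Nr5a2 correlated at 0.79 over the epiblasts, Nr5a2 and Tfcp2l1 at 0.48 and Esrrb and Tfcp2l1 at 0.23.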

How the data were processed

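RNA of 112 mouse samples was measured on Illumina bead arrays. The deposited data hold intensity values and detection p-values of 45281 probes before normalization, summarised with BeadStudio per the submitters' processing notes. The authors' processed log2 values of 31646 probes, deposited separately, served as an alternative. Of their columns, 3 matched another array best, and its normalization was not given in the sources used here. Medians of its columns lay between 6.87 and 6.94.

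Intensities were corrected by normexp from detection p-values, quantile-normalized over all arrays and put on the log2 scale after adding 16 (neqc, limma 3.58.1, R 4.3.3, data.table, version 1.17.8). Of 30774 gene names on the array, 15991 matched a RefSeq symbol, 5826 a synonym and 887 a gene identifier, and 8070 were kept. The probe with the highest mean stood for a gene. Genes detected at a p-value below 0.01 on at least 3 arrays of a fit were tested with lmFit and eBayes with a trend, 2-sided, with Benjamini-Hochberg adjusted p below 0.05. Lines, or single epiblasts, were the replicates, and cultures were replicates only between lines, sublines and iPSC lines. A class of 1 line was assumed to vary like the others. The named genes were the 7 members, the pathway and marker lists, and the 4 genes most like each member. The members and lists were chosen with earlier results of these data known. The tests were checked on simulated data. Figures were drawn with matplotlib 3.10.9 from pandas 2.3.3 tables in Python 3.11.15. Culture numbers did not pair lines with their sublines or iPSC lines with ESCs. Deviations of equal-numbered cultures correlated at −0.28 to 0.11 in the first and −0.2 to 0 in the second. Culture numbers did pair iPSC1 with iPSC2 (0.63 to 0.85), which were not compared with each other. Over pairs of EpiSC lines and sublines the correlations ran from −0.36 to 0.68, so the highest reached the range of iPSC1 with iPSC2. The tests among EpiSC lines took cultures as unpaired. Alternatives covered background correction, scaling, filters, probes, blocks and left-out samples.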

Additional observations from a re-analysis of the deposited data

Results flagged for a closer look

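Esrrb in CAV3 stood apart from the other cavity-stage lines, with a line mean of 5.09 against 4.77 to 4.78 in the other 3. This was 1 of 20 pairs of a gene and a group of 4 to 7 samples examined for such a gap. Chance sets about 1 in 20 such pairs apart. The same groups were used for several genes, so the pairs were not independent.

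The difference between a subline and its line varied among CAV2, CAV3, LMS2 and LB1 for Tfcp2l1 (limma F adjusted p = 9.58e-08), Esrrb (adjusted p = 0.00306) and Tbx3 (adjusted p = 0.00974), where 49.3% of genes varied. The Esrrb call was lost in 1 and the Tbx3 call in 3 of 13 alternatives. LMS2 gave the largest shift of Tfcp2l1 and of Esrrb. The array set and the passage changed together with the thaw in each of the 4 lines.

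The effect of amplification varied among the lines CAV2, PS5, LMS3 and LB2 for Nr5a2 (limma F adjusted p = 2.12e-05) and for Tfcp2l1 (adjusted p = 0.000477). It did not for Tbx3 (0.716). Of all genes, 76.2% varied, so the calls are not particular to the members. The Tfcp2l1 call was lost in 1 of 7 alternatives, median scaling (limma F adjusted p = 0.149).

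The array of EpiSC9 RNA from another laboratory, which entered no comparison, held Nr5a2 at 9.86, above all 65 arrays of the R1-129 lines.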

How the results depend on the processing

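The 6 members lower in EpiSCs than in ESCs and iPSCs passed in every alternative run that tested them. Over the alternatives Esrrb ranged from −7.78 to −5.70 against ESCs, and Nr5a2 in EpiSC9 against EpiSCs from 2.78 to 4.86. Over all results, 398 of the recomputed counts of members passing moved by under 1.5 times and 37 by more. Of single-member values, 1943 kept their call and, where called, their direction, 49 lost a call, 24 gained one and 0 called values reversed; a change of sign between 2 values that both missed the threshold counted as no change. For iPSC against ESC the count of 0 became 2 with the line as a random block, 2 with a replicate block added and 1 with array set as a random block, and ranged from 0 to 4 when 1 line or culture was left out, 4 without iPSC3. For EpiSC9 against iPSC the count of 5 became 3, of 4 tested, under the filter of detection on 25% of the arrays and 2 with only the 2 classes in the fit. For iPSC1 and iPSC2 against ESC the counts of 5 became 3 under that filter. For CAV2* the count of 1 became 0 without background correction, with the authors' processed values, without a filter and with array set as a random block, and ranged from 0 to 1 when a culture number was left out. For CAV3* the count of 2 became 1 under the first 3 of these and ranged from 0 to 2. For LB1* the count of 2 became 0 without background correction and with the authors' values, 1 without a filter and with the random block, and was 1 whichever culture was left out. For streak against early epiblasts the count of 1 became 0 with amplified cultures in a random line block and ranged from 0 to 1. Bud against streak ranged from 1 to 2, the higher without late streak embryo 2 or 3 or early bud embryo 2. For amplified EpiSCs against early epiblasts the count of 0 became 1 without background correction, under median scaling, with the authors' values and without a filter. Against bud epiblasts the count of 2 ranged from 1 to 2, and Tfcp2l1 was 1.30 (limma adjusted p = 0.00219) under median scaling. The 2 members whose amplification effect varied became 1 under median scaling. The replicate block on cultures moved no count of members past 1.5 times; the LMS2* count of 3 became 4. Counts over all genes that moved further were those for iPSC against ESC (0, range 0 to 1355), EpiSC9 against EpiSC (251, 116 to 965), EpiSC9 against iPSC (2521, 905 to 3562), stage of origin (2, 0 to 25), iPSC3 against ESC (2, 1 to 7), iPSC1 (6239, 4135 to 8951), iPSC2 (5874, 3817 to 8374), streak against early epiblasts (756, 431 to 1172), bud against streak (3774, 2100 to 5480), the sublines of LMS2 (5300, 2897 to 7422), LB1 (4439, 2411 to 6471) and CAV2 (5990, 3804 to 8739), their differences (7401, 4084 to 10524) and amplification (6067, 2979 to 9606). The causes were not tested. Zfp42, Prdm14 and Nr0b1 sat at background in EpiSCs, so differences among EpiSC lines in these genes lie within values near background. Calls among them came and went there: Prdm14 in LMS2* passed in 5 of 11 alternatives (limma adjusted p down to 0.0152) and Zfp42 among the lines in 1 of 12 (0.0325). The EpiSC9, array set and iPSC culture 1 alternatives, the leaving out of lines in the amplification pairs and the naming by gene identifier were chosen after seeing the data.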
